A study of Mus musculus with 6 samples.

Results

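The miR-375 and miR-7 miRNAs were measured in the livers of male C57BL/6 mice that had received carbon tetrachloride (CCl4) or corn oil. Every miRNA that the array design names miR-375, miR-7a or miR-7b was taken, which gave 7 members of the 1247 mouse miRNAs on the array. The members were chosen by signals already seen on these arrays, so their values are descriptions and carry no test. The 2 members from the miR-375 hairpin were miR-375-3p and miR-375-5p. The 5 members of the miR-7 family were miR-7a-5p, miR-7a-1-3p, miR-7a-2-3p, miR-7b-5p and miR-7b-3p. The CCl4 group (n = 3 mice) was injected from 7 weeks of age, 2 times a week for 10 weeks, with 0.6 mL/kg of CCl4, a solvent that damages hepatocytes and causes liver fibrosis. The control group (n = 3 mice) was injected with corn oil on the same schedule. Total liver RNA of each mouse was labeled with Cy3 and hybridized to its own array, and all 6 arrays lay on 1 slide. The CCl4 arrays were in row 1 and the corn oil arrays in row 2, so the effects of slide row and of treatment cannot be told apart.

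A mature miRNA guides a silencing complex to mRNAs that pair with its seed, the bases near its 5′ end. Each hairpin precursor can yield a 5p and a 3p arm, and usually one of them is kept. miR-375, named for its 3p arm in most of the literature, is abundant in pancreatic islets and the pituitary and restrains insulin secretion. miR-7 is abundant in the same endocrine cells and in neurons, and in islets it dampens beta-cell proliferation and secretion. Neither is known as a major miRNA of the hepatocyte, whose dominant miRNA is miR-122.

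The mature sequences show which members could pair with the same targets and which are close enough in sequence for their probes to share signal. They were taken from RefSeq (build GRCm38.p6), written 5′ to 3′, with the seed (bases 2 to 8) in capitals. Of the 7 members, 6 had a mature sequence in the table, and mmu-miR-375-3p is named here only.
miR-7a-5p: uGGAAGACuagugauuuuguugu
miR-7b-5p: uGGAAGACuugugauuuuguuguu
miR-7a-1-3p: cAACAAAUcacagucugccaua
miR-7a-2-3p: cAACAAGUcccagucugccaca
miR-7b-3p: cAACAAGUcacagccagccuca
miR-375-5p: gCGACGAGccccucgcacaaac

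Counting from the 5′ end, miR-7a-5p and miR-7b-5p differed by the substitution A10U over 23 aligned bases, of which 22 were equal, and miR-7b-5p had 1 further base. They had the same seed. The 3p arms miR-7a-2-3p and miR-7b-3p also shared a seed and differed by C10A, U14C, U16A and A20U. miR-7a-1-3p differed from miR-7a-2-3p by A7G, which lies in the seed, and by A10C and U21C. The 6 sequences held 4 different seeds. A mature sequence was found for 1017 of the 1247 miRNAs on the array, and 0 of those outside the 2 families had the seed of 1 of the 6 members with a sequence. How far the near-identical miR-7a-5p and miR-7b-5p shared probe signal was not tested.

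Mature miR-7a-5p is made from 2 genes, Mir7-1 and Mir7-2, whose 3p arms differ at 3 of 22 bases. Each 3p arm has its own probes, and how far these share signal was not tested. The hairpins of Mir7-1, Mir7-2 and Mir7b are shown with the 5p and 3p arms in capitals.
Mir7-1: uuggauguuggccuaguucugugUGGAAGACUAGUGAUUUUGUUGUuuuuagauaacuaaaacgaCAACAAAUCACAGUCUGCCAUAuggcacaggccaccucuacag
Mir7-2: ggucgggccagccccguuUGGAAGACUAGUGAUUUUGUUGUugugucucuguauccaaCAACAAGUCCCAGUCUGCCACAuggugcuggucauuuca
Mir7b: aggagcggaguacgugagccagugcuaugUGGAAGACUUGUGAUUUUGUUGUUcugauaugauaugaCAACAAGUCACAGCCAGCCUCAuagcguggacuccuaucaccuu

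In GRCm38.p6, Mir7-1 lies at chr13:58392779-58392886 on the minus strand, inside the gene of the RNA-binding protein Hnrnpk. Mir7-2 lies at chr7:78888277-78888373 on the plus strand, between Det1 and Aen. Mir7b lies at chr17:56242988-56243098 on the plus strand, between Dpp9 and Fem1a. The 5p arm of Mir375 lies at chr1:74900696-74900717 on the minus strand, and its neighboring genes are Cryba2 and Cfap65. The 4 genes thus lie on 4 different chromosomes.

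The signal of these miRNAs lay mostly on the third CCl4 array. Of the 7 members, 4 were detected on that array alone, 1 was detected on all 6 arrays and 2 were detected on none. On the whole array, 8.90% of the miRNAs were detected on the third CCl4 array alone, 13.3% on all 6 arrays and 70.7% on no array. The third CCl4 array had 334 detected miRNAs, against 245 and 227 for the rest of its group and 186 to 193 for corn oil. Of these 334 miRNAs, 111 were detected nowhere else, and no other array had more than 6 miRNAs to itself. Its rank correlation with the other CCl4 arrays went as low as 0.856, while corn oil arrays correlated with each other at 0.985 or more. Whether the RNA on this array came from the same kind of sample as the rest was not tested, and every value from it carries that limit.

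miR-375-3p, the arm of miR-375 that endocrine cells accumulate, had a total signal of 769 on the third CCl4 array (software error 58.7). The total signal is a background-subtracted intensity, which was the sum of both probes for miR-375-3p and, for dim miRNAs, the signal of the brighter probe alone. It was not detected on the other 5 arrays, where the software sets the total to 0.1. Its probes gave the same picture. On the third CCl4 array the brighter probe had a signal of 539 and the dimmer probe a signal of 229.9. On the other arrays the signals of these probes lay between -0.74 and -0.21 and between -1.44 and -0.85, below the local background. Within the array the signals were even, with a coefficient of variation over 20 spots of 3.69% for the brighter probe and 3.44% for the dimmer probe. The lowest of the 20 brighter-probe spots read 1294, while the highest spot of this probe on any other array read 7.93.

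Since miR-375-3p was undetected elsewhere, only a lower bound of the difference can be given. The bound sets the signal against the lowest signal, on each other array, of a miRNA with over 50% of its spots well above background. These lowest signals were 10.4, 10.4 and 11.3 in corn oil, and 12.0 and 12.7 on the first and second CCl4 arrays. Whether they came from both probes or from the brighter probe alone was not tested. In the latter case, the sum of both probes of miR-375-3p is not a like-for-like numerator, and the bounds are too high. Without scaling between arrays, miR-375-3p was at least 62.3-fold higher on the third CCl4 array than on the other CCl4 arrays and at least 71.9-fold higher than on the corn oil arrays. After each array was scaled to its own 75th percentile over the miRNAs detected on all 6 arrays, these bounds were 21.4-fold and 15.8-fold. The 75th percentile itself was 723 on the third CCl4 array and 152 to 278 on the others. The opposite arm, miR-375-5p, was detected on no array. Its probes read 2.21 and 0.46 on the third CCl4 array, within 3 times their error.

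**Figure D1:**
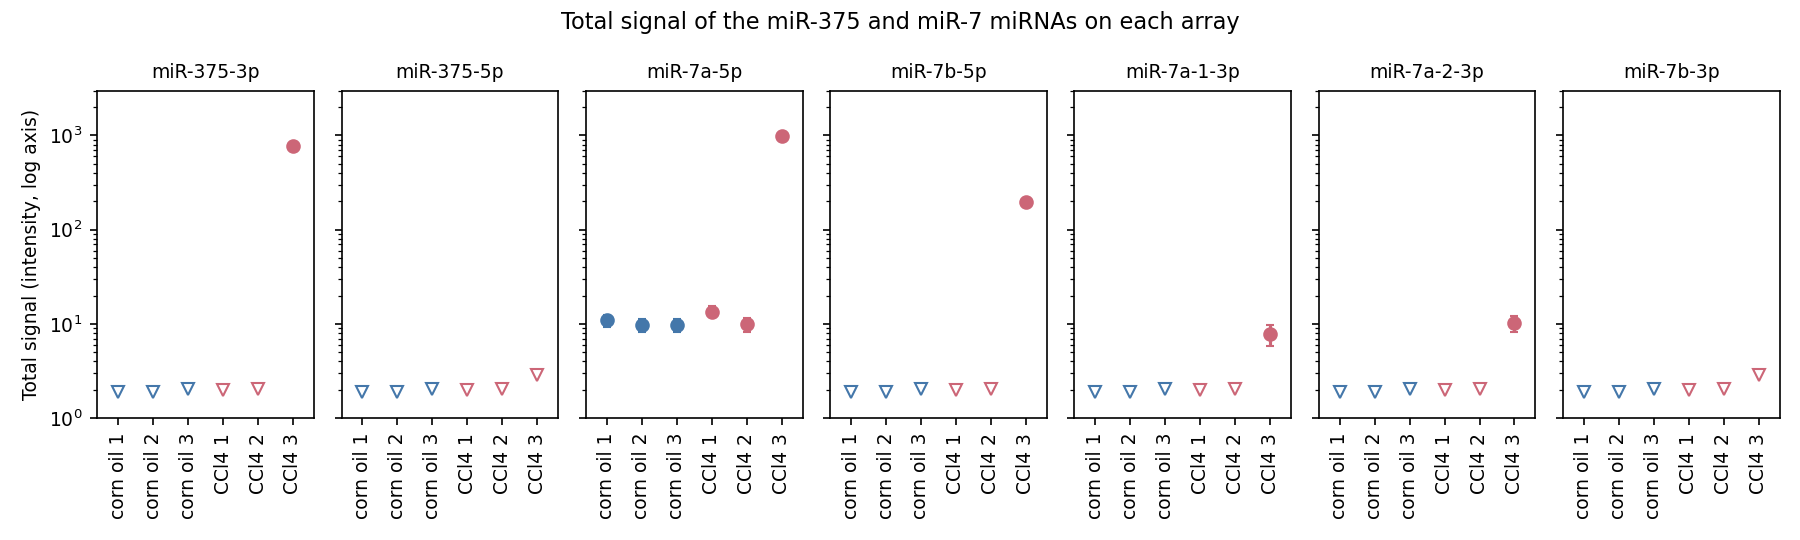
Total signal (intensity, log axis) of the 7 miRNAs on each of the 6 arrays, corn oil in blue and CCl4 in red; bars are the error given by the software, and open triangles mark arrays on which the miRNA was not detected, drawn at the lowest detected signal of that array. miR-375-3p (769) and miR-7b-5p (199) have a signal on the third CCl4 array alone, and miR-7a-5p lies between 9.65 and 13.5 on 5 arrays and at 985 on the third CCl4 array.

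miR-7a-5p, the main arm of both miR-7a hairpins, was detected on all 6 arrays. In corn oil its total signals were 10.9, 9.65 and 9.75. In CCl4 they were 13.5, 9.87 and 985, the last with a software error of 83.8. The first and second CCl4 arrays thus lay near the corn oil arrays, and the second lay within their range. The totals were not built alike. On 5 arrays the total was the brighter probe alone, and on the third CCl4 array it was the sum of both probes. The like-for-like comparison is therefore that of the brighter probe, which read 821 on the third CCl4 array. Without scaling, the brighter probe was 71.0-fold higher there than on the other CCl4 arrays and 81.4-fold higher than on the corn oil arrays. After scaling to the 75th percentile these values were 24.4-fold and 17.9-fold. The dimmer probe read 163 on the third CCl4 array and between 1.44 and 2.17 on the others, where none of its spots were well above background.

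**Figure D2:**
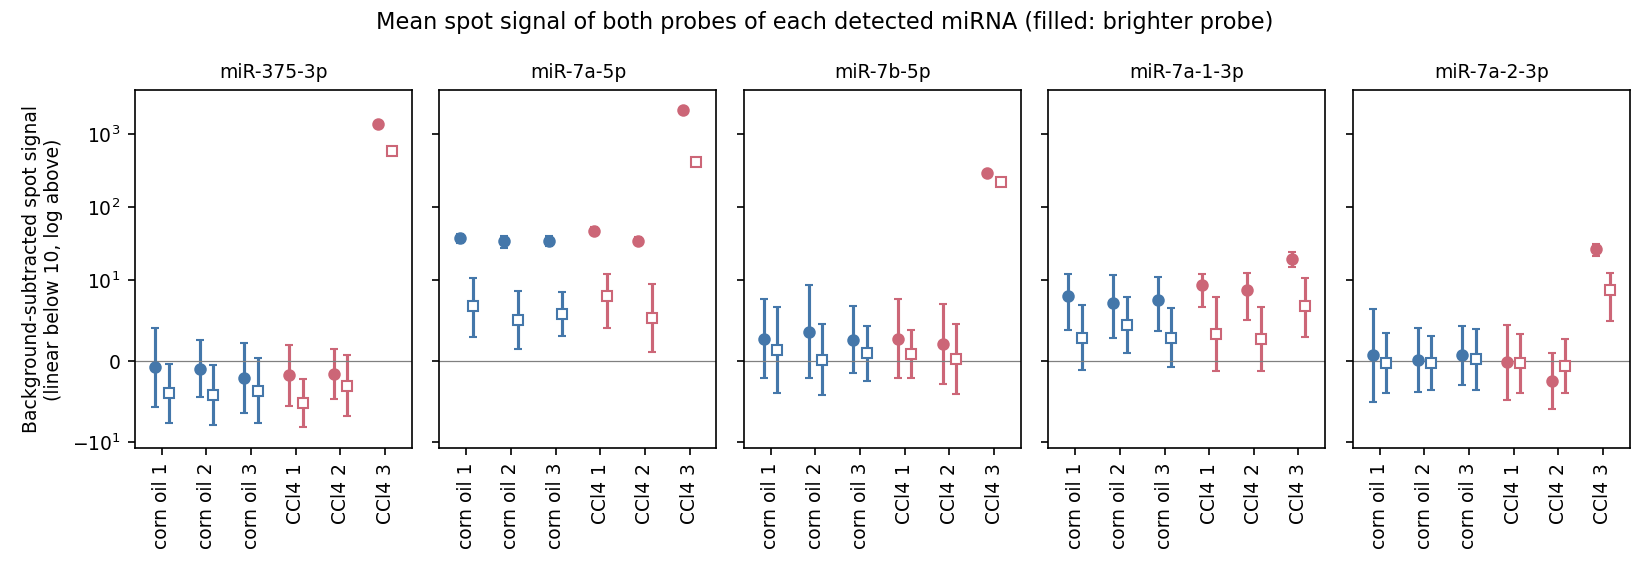
Mean background-subtracted spot signal (linear below 10, log above) of both probes of the 5 detected miRNAs on each array, with the SD over 20 spots as bars; filled circles are the brighter probe and open squares the dimmer probe, with corn oil in blue and CCl4 in red. Both probes of miR-375-3p, miR-7a-5p and miR-7b-5p stand above every other array on the third CCl4 array, and the brighter probe of each 3p arm of miR-7a reaches a mean of 19.7 and 26.5 there.

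In the other CCl4 livers the value of miR-7a-5p depended on the scaling, and on the first CCl4 array its direction turned. Relative to the corn oil mean, the log2 signal of the first CCl4 array was 0.42 without scaling, -0.38 after scaling to the 75th percentile and -0.50 after quantile normalization. For the second CCl4 array these values were -0.03, -0.51 and -0.66, below the corn oil mean each time. The third CCl4 array stayed above the corn oil mean under each scaling, by 6.61, 4.42 and 4.38. The corn oil arrays varied by an SD of 0.10, 0.07 and 0.17 under the same scalings. Without scaling, the median log2 difference between the groups over the 166 miRNAs detected on all arrays was 0.99, and 0.45 without the third CCl4 array. After scaling to the 75th percentile these medians were -0.16 and -0.19. Scaled to the 75th percentile, the group difference of miR-7a-5p was 1.18, with an SD of 0.07 in corn oil and 2.81 in CCl4 (n = 3 each). Without the third CCl4 array it was -0.44. The positive group difference rested on that array.

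**Figure D3:**
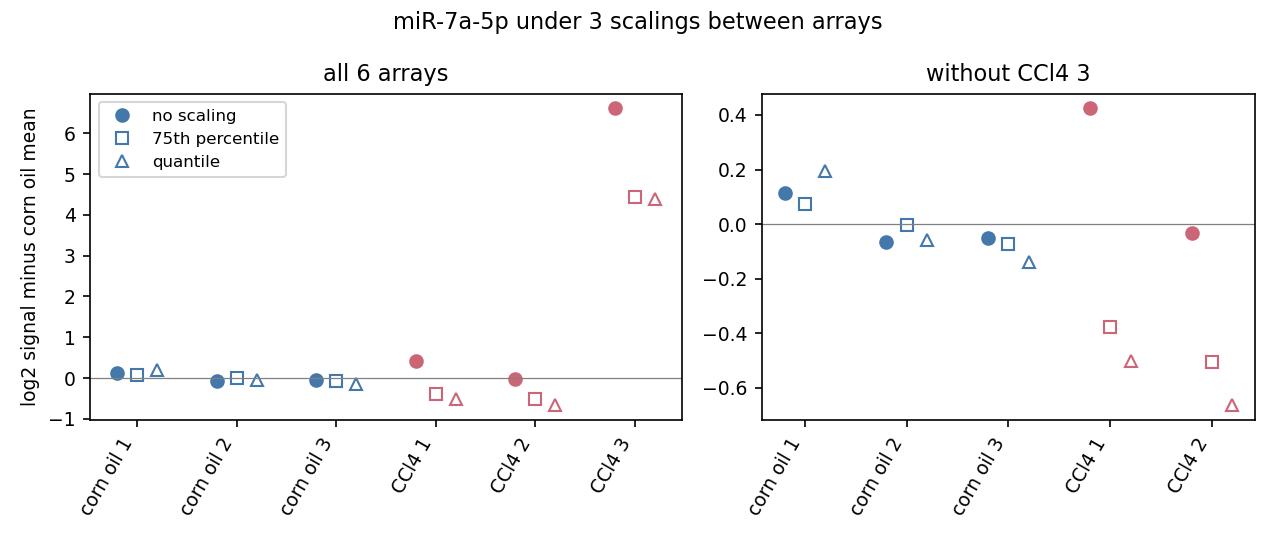
log2 total signal of miR-7a-5p minus the corn oil mean, for each array, without scaling (filled circles), scaled to the 75th percentile (squares) and quantile normalized (triangles), corn oil in blue and CCl4 in red. The left panel shows all 6 arrays and the right panel the same values on a narrower axis without the third CCl4 array, where the first CCl4 array lies at 0.42 without scaling and at -0.38 or -0.50 with it.

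The limma fit across the 166 miRNAs called 20 between CCl4 and corn oil (12.0%), with a fold over 2 and an adjusted p under 0.05 (Benjamini-Hochberg). This count ranged from 5, without the first CCl4 array or the second corn oil array, to 28 without the third CCl4 array. It was 7 and 6 without the first and the third corn oil array, and 6 when a replicate block was added. miR-7a-5p was the only member that entered the fit and was not among the called miRNAs. Its quantile-normalized log2 mean was 3.89 (SD 0.17) in corn oil and 4.96 (SD 2.87) in CCl4. The other members were not detected on all arrays and were not fitted.

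mmu-miR-7b-5p, which shares its seed with miR-7a-5p but comes from a gene of its own, had a total signal of 199 on the third CCl4 array (software error 14.5) and was not detected elsewhere. Its probes read 114 and 85.0 there, and the total was the sum of both. On the other arrays they read between 0.48 and 0.79 and between 0.06 and 0.38. The lowest spots on the third CCl4 array, 274 and 198, lay above the highest spots on the other arrays, 19.8 and 14.5. Without scaling miR-7b-5p was at least 16.2-fold higher on this array than on the other CCl4 arrays and at least 18.6-fold higher than on the corn oil arrays. With scaling to the 75th percentile the bounds were 5.54-fold and 4.10-fold.

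The passenger arms of the miR-7 hairpins were dim or not detected. miR-7a-1-3p, from Mir7-1, had a total signal of 7.83 on the third CCl4 array with 7.5% of its 40 spots well above background. miR-7a-2-3p, from Mir7-2, had a total signal of 10.2 with 37.5% of its spots well above background. Both totals lay under the lowest signal of a miRNA with over 50% of such spots on that array, 19.1, and no fold is given. miR-7b-3p was detected on no array, with probe signals of 0.81 and 0.75 on the third CCl4 array.

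All 14 probes of the 7 miRNAs, those of the undetected arms included, had their highest signal on the third CCl4 array. Over all 3105 miRNA probes, 41.6% had their highest signal there. In 7 of the 14 probes the lowest spot on this array lay above the highest spot on every other array, against 11.3% of all probes. These 7 were both probes of miR-375-3p, miR-7a-5p and miR-7b-5p and the brighter probe of miR-7a-2-3p. The other 7 probes, which include those of the undetected arms, had spots that overlapped between arrays.

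Since miR-7a-5p was measured on every array, its difference can be set beside those of the 166 miRNAs detected on all of them. After scaling to the 75th percentile, its log2 total signal on the third CCl4 array lay 4.87 above the mean of the other CCl4 arrays. The median of this difference over the 166 miRNAs was -0.19, and miR-7a-5p was the only miRNA of the 166 with a difference over 4. The 166 leave out the miRNAs detected on the third CCl4 array alone. With undetected signals at the lowest detected signal of their array, miR-7a-5p ranked 15 among the 365 miRNAs detected on any array. Its total gained a second probe on that array, as described above. The other members were undetected on the other CCl4 arrays, so only the bounds above are given for them.

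The 5 miRNAs whose signals over the 6 arrays were most like those of each detected member were listed. Likeness was the root mean square difference of the scaled log2 signals, each centered on its own corn oil mean, over 6 arrays. For a miRNA seen on 1 array, this measure comes down to the size of its signal there. miR-127-3p and miR-10b-5p were the nearest to miR-375-3p, each with a difference of 0.04. miR-154-5p (0.36), miR-379-5p (0.48) and miR-434-3p (0.49) followed. Of these 5, all but miR-10b-5p lie between Dlk1 and Dio3, the imprinted domain that holds a large miRNA cluster. This domain also held 44 of the 97 miRNAs with a known location that were detected on the third CCl4 array alone (45.4%), and 47 of the 297 detected on any array (15.8%). The 5 listed for miR-7a-5p were miR-7b-5p, miR-376a-3p, miR-410-3p, miR-299b-5p and miR-329-3p, of which the last 4 lie in that domain. All 5 were undetected on 5 arrays, where miR-7a-5p was measured, so their nearness is set by the lowest signal assigned to them. The miRNAs nearest to miR-7b-5p were miR-410-3p (0.02), miR-299b-5p (0.04), miR-376a-3p (0.06), miR-382-5p (0.07) and miR-329-3p (0.12), and all 5 lie between Dlk1 and Dio3. The nearest to miR-7a-1-3p were miR-485-5p, miR-362-5p, miR-666-3p, miR-186-5p and miR-744-5p, of which miR-666-3p lies in that domain and miR-485-5p had no location in the table. Those nearest to miR-7a-2-3p were miR-532-3p, miR-24-1-5p, miR-1843a-5p, miR-299a-3p and miR-370-3p, of which the last 2 lie there.

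Lists of markers of other cell types were set beside the members, and the lists did not all move alike on the third CCl4 array. The lists were chosen with earlier results of these arrays known, and their part in the result was not tested. A list of 13 other miRNAs known from endocrine cells had 1, 1 and 2 detected members in corn oil, 3 and 3 on the first and second CCl4 arrays and 8 on the third. Over all miRNAs, 26.8% were detected on the third CCl4 array, 19.6% and 18.2% on the first and second, and 14.9% to 15.5% in corn oil. The summed signal of the list was 109.7, 102 and 104 in corn oil and 127, 106 and 1348 in CCl4, before scaling. Divided by the 75th percentile of each array, the sum was 1.87 on the third CCl4 array and 0.46 to 0.67 on the others. The brightest was miR-127-3p, with 818 on the third CCl4 array. Of the 13, 5 were detected on that array alone, as were 8.90% of all miRNAs. miR-184-3p, miR-183-5p, miR-182-5p, miR-369-3p and miR-325-3p were detected on no array. Of the 13, miR-127-3p, miR-376a-3p (179 on the third CCl4 array) and miR-369-3p lie between Dlk1 and Dio3. The other 10 summed to 351 on the third CCl4 array, against 102 to 127 elsewhere, before scaling. This sum, once divided by the 75th percentile, was 0.49 on the third CCl4 array, within the 0.46 to 0.67 of the other arrays. The number detected among these 10 was highest on the third CCl4 array, as was the share detected over all miRNAs. This number was 6 for the third CCl4 array, 3 for the first, 3 for the second, and 1, 1 and 2 in corn oil. Against the mean of the other CCl4 arrays, the scaled log2 signal on the third differed by -0.93 for miR-212-3p and by -0.38 for miR-96-5p. The difference was 1.35 for miR-132-3p. For miR-335-5p, miR-204-5p and miR-153-3p it was 2.73, 2.52 and 2.42, with undetected signals at the lowest detected signal of their array. On the arrays other than the third CCl4 array, the sum of these 10 was mostly miR-212-3p, which read 94.1 to 109.7 there. It read 147 on the third CCl4 array. The scaled sum thus says little about the rest of these miRNAs.

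The 6 hepatocyte markers, which define the labeled tissue, were all detected on 5 arrays, and 5 of them were detected on the third CCl4 array. Their summed signal was 20523, 19011 and 20917 in corn oil and 15024, 17797 and 3047 in CCl4 before scaling. Divided by the 75th percentile, it was 125 to 129 in corn oil and 54.1, 80.5 and 4.22 in CCl4. The brightest of them on the third CCl4 array, miR-122-5p, read 2158 there, and miR-122-3p was the marker not detected there. miR-101a-3p went the other way, from 69.0 and 67.3 on the other CCl4 arrays to 297 on the third. In whole tissue RNA, fewer cells of a type and less of a miRNA per cell cannot be told apart, and a sample that differs in its tissue content was not tested for.

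Among 7 brain markers, 4 were detected on the third CCl4 array, with a summed signal of 148 against 9.55 to 16.7 on the others before scaling, and 0.21 against 0.05 to 0.07 after division by the 75th percentile. The brightest was miR-219-5p (55.4), which was detected on every array. miR-137-3p (52.8) and miR-124-3p (6.37) were detected on the third CCl4 array alone, and miR-128-3p read 33.9 there. miR-9-5p, miR-9-3p and miR-138-5p were detected on no array. The 3 markers of pancreatic acinar cells, miR-216a-5p, miR-216b-5p and miR-217-5p, and all 5 muscle markers were also detected on no array. Of the 3 kidney and trunk markers, miR-10a-5p read 1320 and miR-10b-5p 715 on the third CCl4 array, and the list summed to 2079 there and to at most 63.4 elsewhere before scaling. After division by the 75th percentile these sums were 2.88 and at most 0.23. Of the 4 gonad markers, miR-34b-5p (244) was detected on that array alone, as was miR-34c-5p (142), miR-202-3p was detected on every array and miR-202-5p on none, and the list summed to 422 there and to at most 28.3 elsewhere before scaling. After that division these sums were 0.58 and at most 0.17.

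The remaining lists covered blood, fibrous tissue and epithelium, and their sums are given before scaling. The 2 red cell markers on the array summed to 466, 754 and 699.7 in corn oil and to 730, 315 and 2135 in CCl4, of which miR-451a gave 2050 on the third array. Divided by the 75th percentile of each array, the third CCl4 array had 2.95, within the 2.85 to 4.95 of the corn oil arrays. The 5 mesenchymal markers, led by miR-199a-3p, summed to 71.5, 60.1 and 97.8 in corn oil and to 518, 215 and 967 in CCl4, so that each CCl4 array lay above the corn oil arrays. Divided by the 75th percentile, they had 0.39 to 0.60 in corn oil and 1.87, 0.97 and 1.34 in CCl4. Of the 6 leukocyte markers, miR-223-3p was the brightest on the CCl4 arrays and miR-142-3p on the corn oil arrays. Together the 6 summed to 91.0, 77.7 and 90.7 in corn oil and to 475, 346 and 457 in CCl4. On this sum the third CCl4 array lay between the other CCl4 arrays. Divided by the 75th percentile, it had 0.63, below the 1.71 and 1.57 of the other CCl4 arrays. The 7 markers of intestinal and biliary epithelium summed to 55.0, 50.1 and 90.6 in corn oil and to 202, 94.0 and 54.6 in CCl4. Divided by the 75th percentile, the third CCl4 array had 0.08, below the 0.33 to 0.73 of the other arrays. Of this list, miR-200c-3p, miR-141-3p and miR-196b-5p were detected on no array.

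**Figure D4:**
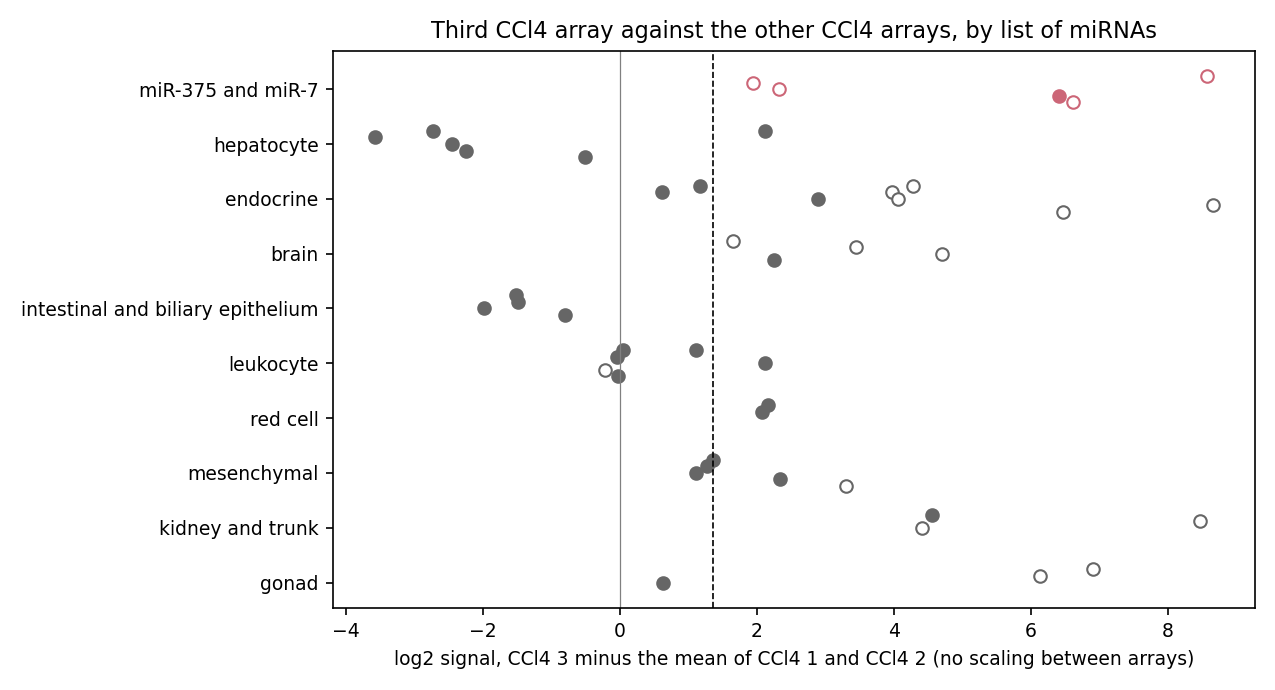
log2 signal on the third CCl4 array minus the mean of the other CCl4 arrays, without scaling, for the miR-375 and miR-7 miRNAs (red) and for each marker list with a detected miRNA (gray), with undetected signals set to the lowest detected signal of their array. Open points were not detected on at least 1 of the other CCl4 arrays, so their place is set by that lowest signal, and the dashed line is the median of the miRNAs detected on all arrays (1.36); miR-7a-5p, detected on all arrays, lies at 6.41, and 5 of the 6 hepatocyte points lie below 0.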

How the data were processed

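Scanner output was deposited as made by Agilent Feature Extraction 11.0.1.1, according to the submitters' processing notes. The deposited values are linear intensities, background subtracted and not normalized between arrays, with 0.1 for an undetected miRNA. The authors' second table, quantile-normalized intensities of 111 miRNAs, held 0 of the 7 members and served only as an alternative. The members and lists were chosen with earlier results of these data known.

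Control spots were left out. All members are named, with the 5 miRNAs most like each detected member, those sharing a seed and all list members. For the background count, miRNAs flagged as detected on all 6 arrays were quantile normalized on the log2 scale and fitted with limma 3.58.1 in R 4.3.3, after a test on simulated data. Member signals were scaled to the 75th percentile of those miRNAs, with undetected signals at the lowest detected signal of the array for group means and likeness. Other steps used Python 3.11.15, numpy 2.4.6, pandas 2.3.3 and matplotlib 3.10.9. The scanner headers name another build than the sequence table, so coordinates are those of the table alone. Each member had 2 probes of 20 spots, and 3 arrays in each group limit the precision.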

Additional observations from a re-analysis of the deposited data

Results flagged for a closer look

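The signal of 4 of the miRNAs was seen outside the fitted comparison, on a single CCl4 array and on no corn oil array. The total signal on the third CCl4 array was 769 for miR-375-3p, 199 for miR-7b-5p, 10.2 for miR-7a-2-3p and 7.83 for miR-7a-1-3p. For miR-375-3p and miR-7b-5p all 40 spots were well above background, and for the 3p arms of miR-7a most were not.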

How the results depend on the processing

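The count of miRNAs called between CCl4 and corn oil was 20 of 166 and stayed within 1.5 times of this with the mean spot signal, 75th percentile scaling or no normalization (15 to 18). It was 32 of 215 when detection was asked on every array of 1 group or more, 6 of 1247 with no detection filter, 6 with the replicate block and 12 of 111 with the authors' deposited values, an alternative chosen after seeing the data. With 1 array left out it ranged from 5 to 28: 5 without CCl4 replicate 1 or corn oil replicate 2, 7 and 6 without corn oil replicates 1 and 3, and 28 without CCl4 replicate 3. The cause of these changes was not tested. miR-7a-5p was called in 0 of the fits that it entered, and 0 other members were called where they entered. The deposited values held 0 of the members, so that fit could not call them. The replicate numbers were not used to pair the arrays in the main fit. Deviations from the group means of same-numbered arrays correlated at -0.18, 0.11 and 0.03. With 3 arrays in each group, these values cannot show whether the arrays were paired. The group difference of miR-7a-5p (1.18) ranged from 0.81 to 2.33 under other scalings, signals and floors, and from -0.47 to 2.00 with 1 array left out; the negative value is that without CCl4 replicate 3, after rescaling. For miR-375-3p (1.76) and miR-7b-5p (1.11), 5 of the 6 values were the assigned lowest signal and the SD came from the third CCl4 array, so their alternatives bear on no stability. That of miR-7b-5p was -0.02 with the mean spot signal, and neither had a value without CCl4 replicate 3. With over 50% of spots well above background required, miR-7a-5p was detected on 1 array and the 3p arms of miR-7a on 0. Requiring 1 probe above 3 times its error changed no detection. On the 5 arrays other than the third CCl4 array, the signal of miR-7a-5p rested on 1 probe.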
